A study of Drosophila melanogaster with 24 samples.

Results

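The 10 genes described here set the pace of the cell cycle in the *Drosophila* embryo, and all 10 were found by symbol among the 13634 genes of the array. They are the cyclin genes *CycA*, *CycB*, *CycB3*, *CycE* and *CycD*, the Cdc25 phosphatase genes *stg* (*string*) and *twe* (*twine*), their antagonist *trbl* (*tribbles*), the anaphase activator gene *fzy* (*fizzy*) and the inhibitor gene *dap* (*dacapo*). They are given by 13 transcript rows, 2 each for *CycA*, *CycE* and *dap* and 1 for each of the other 7 genes, and every row passed the test for expression in all 8 groups of samples.

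The earliest nuclear divisions of the fly embryo run in a shared cytoplasm, alternate DNA synthesis and mitosis without gaps, and are driven by products that the mother placed in the egg. Cyclins activate the cyclin-dependent kinases, Cdc25 phosphatases strip inhibitory phosphates from Cdk1, and the anaphase-promoting complex destroys mitotic cyclins to end each mitosis. At the maternal-to-zygotic transition maternal transcripts are cleared, cells form around the nuclei and a G2 pause appears, after which bursts of zygotic *stg* transcription time the later mitoses.

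Total RNA was measured in embryos collected 0-1.5, 1.5-3, 3-4.5 and 4.5-6 h after egg-laying, from w1118 flies, the wild-type control, and from bratfs1/Df(2L)TE37C-7 females, which lack functional Brain tumor (BRAT), an RNA-binding protein that represses maternal transcripts. The mutant females were mated to brothers that were mostly bratfs1/CyO or Df(2L)TE37C-7/CyO, so the *brat* mutant embryos were alike in maternal genotype but mixed in their own. Each of the 8 groups had 3 biological replicates, 24 samples in all. Values are log2 signals, and a difference of 1 on this scale is a 2-fold difference. Because the signals come from whole embryos, fewer cells that carry a transcript and less transcript in each cell cannot be told apart, and because probes differ, levels were compared only within a gene.

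The bratfs1 allele changes an amino acid, so its transcript is still made. The *brat* transcript was 0.67 lower on the log2 scale in the mutant at 0-1.5 h (SE 0.18, adjusted p = 0.0457, limma) and differed by 0.11, −0.03 and −0.08 afterwards (adjusted p between 0.745 and 0.927), so its level separated the genotypes only at the first time point. The 9 chorion and yolk protein genes, markers of ovarian follicle tissue, were not called expressed in any group. Correlations between replicates lay between 0.928 and 0.968, and the median signal between 8.70 and 8.83 in every sample.

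Of the 10 transcripts, *twe* and *trbl* were more abundant in *brat* mutant embryos at 0-1.5 h, *stg* and *dap* at 1.5-3 h, and *twe* again at 3-4.5 and at 4.5-6 h. These were the 6 genotype differences out of 40 that passed limma at a false discovery rate of 5%, and all 6 were higher in the mutant. With dye as a term in the fit, *stg* at 1.5-3 h and *twe* at 4.5-6 h were still called. The other 4 were not, at differences of 0.71 for *twe* and 0.88 for *trbl* at 0-1.5 h, 1.09 for *dap* at 1.5-3 h and 1.37 for *twe* at 3-4.5 h, against 0.72, 0.91, 1.23 and 1.49 without that term. Without the expression filter, *twe* and *trbl* at 0-1.5 h and *dap* at 1.5-3 h were also not called, at the same differences. At 0-1.5 h 4.91% of all 5718 genes tested were called higher and 3.9% lower, at 1.5-3 h 4.06% and 3.59%, at 3-4.5 h 2.17% and 1.42%, and at 4.5-6 h 6.33% and 5.72%. The 2 members called at 0-1.5 h compare with 8.81% of all genes, the 2 at 1.5-3 h with 7.64%, the 1 at 3-4.5 h with 3.59% and the 1 at 4.5-6 h with 12%. The median difference over the 10 transcripts was 0.15, 0.15, 0.36 and 0.12 at the 4 time points, and over all genes −0.03, −0.04, −0.05 and −0.09. The samples of the genotypes were fully separated for 6 members at 0-1.5 h, 3 at 1.5-3 h, 6 at 3-4.5 h and 5 at 4.5-6 h, and for 29.2%, 30.6%, 29.8% and 35.4% of all genes.

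**Figure D1:**
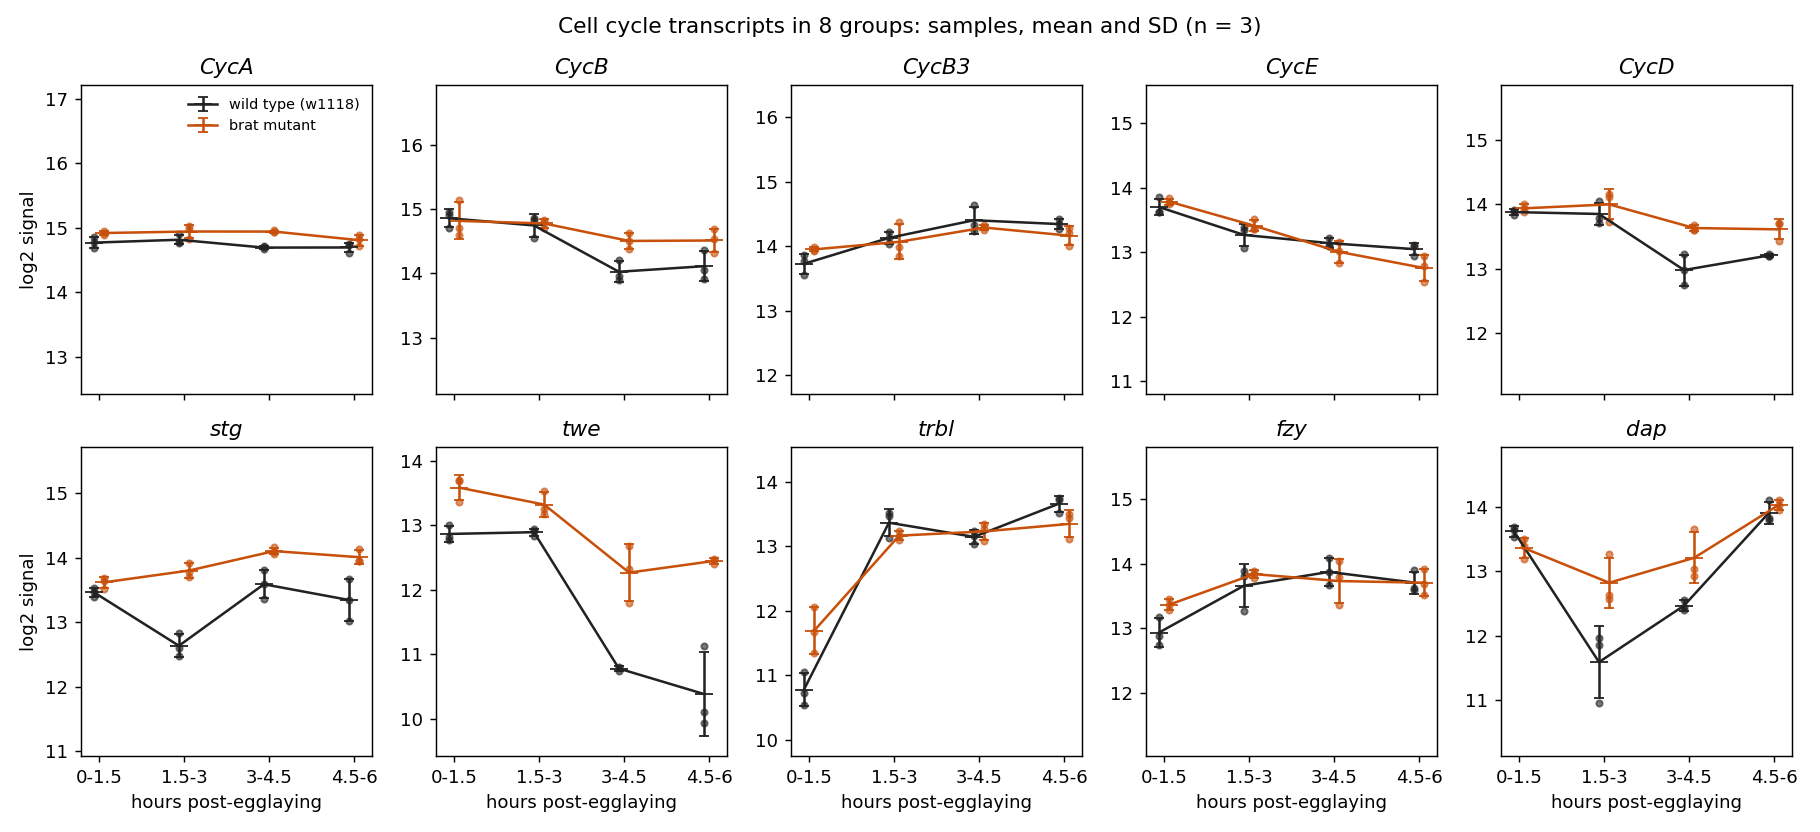
Log2 signal (vertical axis, each panel spanning the same number of log2 units around its own centre) of the 10 transcripts at 4 time points in hours post-egglaying. Points are samples, lines join group means, and bars are the SD (n = 3), with wild type in black and *brat* mutant in orange. The wild-type trough of *stg* and of *dap* at 1.5-3 h and the late loss of *twe* are deeper than the corresponding mutant lines, and *CycA* is nearly flat in both.

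*stg* encodes the Cdc25 phosphatase whose maternal product serves the syncytial cycles and whose zygotic transcription drives every later mitosis. In wild-type embryos its signals were 13.39, 13.52 and 13.47 at 0-1.5 h, 12.59, 12.48 and 12.83 at 1.5-3 h, 13.59, 13.80 and 13.36 at 3-4.5 h, and 13.66, 13.34 and 13.02 at 4.5-6 h. The wild-type *stg* level therefore dipped at 1.5-3 h, with no overlap with either neighbouring time point. It fell by 0.83 into that window (SE 0.16, 1.78-fold, adjusted p = 2.4e-04) and rose by 0.95 out of it (SE 0.16, 1.94-fold, adjusted p = 5.8e-05). In *brat* mutant embryos the signals of *stg* were 13.69, 13.64 and 13.52, then 13.70, 13.77 and 13.92, then 14.06, 14.16 and 14.08, and last 13.95, 14.13 and 13.94. No dip was seen in these samples, and neither step up to 3-4.5 h passed the test (0.18 and 0.30, SE 0.16, adjusted p = 0.401 and 0.208). The direction of the first of these mutant steps of *stg* was not settled, since it was −0.087 after scaling to the ribosomal protein genes.

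At 1.5-3 h *stg* was therefore 2.24-fold higher in *brat* mutant embryos (log2 difference 1.17, SE 0.19, adjusted p = 0.0114, limma). The mutant mean of 13.80 ± 0.11 and the wild-type mean of 12.63 ± 0.18 (SD, n = 3) were separated by more than the range of either group, and the call was kept with each of the 6 libraries left out in turn (differences of 1.09 to 1.26). Within a dye, where 2 samples stood against 1, the difference was 1.33 in Cy3 and 1.06 in Cy5. The change in *stg* from the first to the second window also differed between the genotypes, by 1.01 (SE 0.23, adjusted p = 0.0235). At 3-4.5 and 4.5-6 h the mutant means stayed above wild type, by 0.51 and 0.66 (SE 0.19 and 0.20), with groups that did not overlap but adjusted p of 0.153 and 0.0665.

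*twe* encodes the second Cdc25 phosphatase, needed for meiosis and supplied by the mother to the syncytial cycles. Its wild-type signals were 12.81, 13.01 and 12.78 at 0-1.5 h and 12.91, 12.83 and 12.94 at 1.5-3 h, and then dropped to 10.81, 10.79 and 10.74 at 3-4.5 h and 9.93, 10.10 and 11.12 at 4.5-6 h. The loss came between the second window and the next, where *twe* fell by 2.11 (SE 0.24, 4.33-fold, adjusted p = 5.7e-07). In the mutant the signals were 13.36, 13.71 and 13.68, then 13.26, 13.53 and 13.17, then 12.33, 11.79 and 12.67, and last 12.48, 12.46 and 12.40. The mutant drop over the same step was 1.06 (SE 0.24, 2.08-fold, adjusted p = 0.00567). The difference between these drops, 1.06 (SE 0.34), did not pass the test (adjusted p = 0.0671, limma). Of the fits with 1 library left out, only that without replicate 2 of the 3-4.5 h mutant group passed (1.29, adjusted p = 0.0213, limma). That sample, at 11.79, was the lowest of its group.

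The *twe* transcript was higher in every mutant sample than in every wild-type sample at all 4 time points. The difference was 0.72 at 0-1.5 h (SE 0.17, 1.65-fold, adjusted p = 0.031), 0.43 at 1.5-3 h (SE 0.19, adjusted p = 0.198, not called), 1.49 at 3-4.5 h (SE 0.24, 2.80-fold, adjusted p = 0.0251) and 2.06 at 4.5-6 h (SE 0.30, 4.18-fold, adjusted p = 0.00435). Only the last of these calls was kept with each library left out in turn (differences of 1.84 to 2.44). The 0-1.5 h call was lost without mutant replicate 2 or 3 (0.66 and 0.67) or wild-type replicate 1, 2 or 3 (0.69, 0.79 and 0.68). The 3-4.5 h call was lost without mutant replicate 1 or 3 (1.46 and 1.28) or wild-type replicate 1, 2 or 3 (1.50, 1.49 and 1.47). Within a dye, the *twe* difference was 0.51 in Cy3 and 0.91 in Cy5 at 0-1.5 h, 1.71 and 1.02 at 3-4.5 h, and 2.34 and 1.94 at 4.5-6 h. Each of these values set 2 samples against 1. The wild-type library with the *twe* signal of 11.12, replicate 3 at 4.5-6 h, stood above the other 2. Without it, the wild-type decrease from 3-4.5 h to 4.5-6 h was called (−0.77), and with it was not (−0.39, SE 0.24, adjusted p = 0.327).

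**Figure D2:**
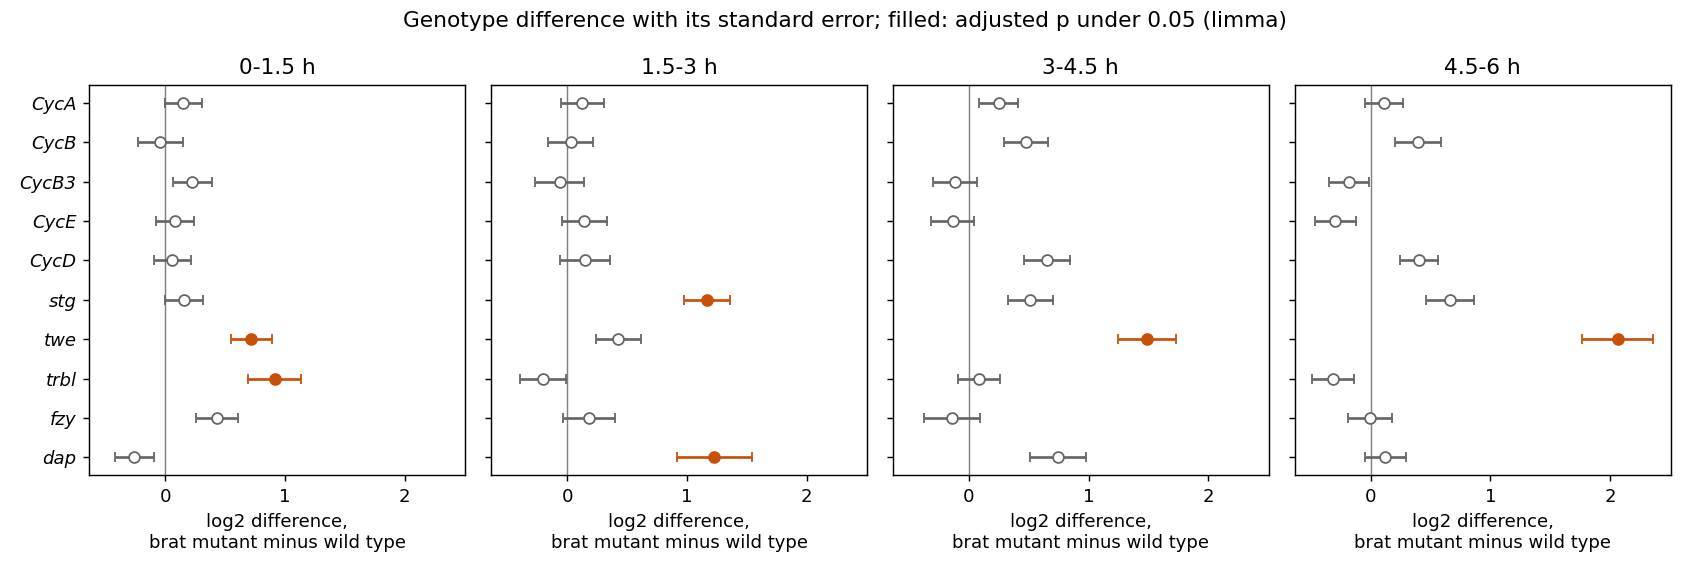
Log2 difference between *brat* mutant and wild-type embryos (horizontal axis) for each transcript at 4 time points, with the standard error from limma. Filled orange points have an adjusted p under 0.05: *twe* and *trbl* at 0-1.5 h, *stg* and *dap* at 1.5-3 h, and *twe* at both later times, where it reaches 2.06.

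*trbl* encodes a pseudokinase that promotes destruction of the Cdc25 proteins String and Twine and holds back mitosis in the invaginating mesoderm. Its wild-type signals were 11.06, 10.55 and 10.73 at 0-1.5 h, 13.12, 13.51 and 13.47 at 1.5-3 h, 13.16, 13.04 and 13.24 at 3-4.5 h and 13.72, 13.75 and 13.52 at 4.5-6 h. The *trbl* rise between the first and second windows was the widest step of any member, 2.59 in wild type (SE 0.18, 6.02-fold, adjusted p = 7.8e-10). In the mutant the *trbl* signals were 11.68, 11.34 and 12.06 in the first window and lay between 13.09 and 13.50 in the 3 later ones. The mutant rise was 1.47 (SE 0.18, 2.78-fold, adjusted p = 2.8e-06), and the rises differed by −1.11 (SE 0.26, adjusted p = 0.0267).

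The unequal rise of *trbl* went with a higher start in the mutant. At 0-1.5 h *trbl* was 1.88-fold higher in the mutant (0.91, SE 0.22, adjusted p = 0.032), with every mutant sample above every wild-type sample. It was lost as a call without mutant replicate 1 or 3 (0.92 and 0.73) or wild-type replicate 2 or 3 (0.80 and 0.89). Within a dye, where 2 samples stood against 1, the *trbl* difference was 1.32 in Cy3 and 0.44 in Cy5. At the later times the differences in *trbl* were −0.20, 0.08 and −0.31 (adjusted p = 0.559, 0.812 and 0.275), and at the last of them the mutant samples all lay just below wild type.

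*dap* encodes the Cip/Kip-type inhibitor of CycE with Cdk2, which stops epidermal cells in G1 after their last embryonic division. Wild-type signals were 13.69, 13.63 and 13.53 at 0-1.5 h, 11.86, 11.96 and 10.95 at 1.5-3 h, 12.56, 12.45 and 12.40 at 3-4.5 h and 14.11, 13.79 and 13.83 at 4.5-6 h. The *dap* level thus fell and then recovered in wild type, with each window apart from its neighbours. It dropped by 2.03 (SE 0.23, 4.07-fold, adjusted p = 5.0e-07), then rose by 0.88 (1.83-fold, adjusted p = 0.00425) and by 1.44 (2.72-fold, adjusted p = 3.6e-04). In the mutant the *dap* signals were 13.19, 13.50 and 13.38, then 12.57, 12.63 and 13.26, then 12.93, 13.03 and 13.66, and last 14.11, 13.96 and 14.03. None of the 3 mutant steps passed the test (−0.54, 0.39 and 0.82, SE 0.23, adjusted p = 0.0816, 0.279 and 0.0903). Without replicate 3 of the mutant at 1.5-3 h the first of them was −0.76 and called, and without replicate 3 at 3-4.5 h the last was 1.05 and called. No other fit with 1 library left out gave a call for a mutant step of *dap*. With ribosomal protein scaling the first mutant step of *dap* was −0.81 and called (adjusted p = 0.0108, limma). With a replicate block in the fit its first and last mutant steps were called (adjusted p = 0.046 and 0.0478, limma), at unchanged differences.

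At 1.5-3 h *dap* was 2.35-fold higher in the mutant (1.23, SE 0.31, adjusted p = 0.0471), a call that was not kept when any of the 6 libraries was left out. The difference was 0.91 without wild-type replicate 3, the sample at 10.95, 1.37 and 1.41 without wild-type replicates 1 and 2, and 1.36, 1.32 and 1.01 without mutant replicates 1, 2 and 3. Within a dye, where 2 samples stood against 1, the *dap* difference was 0.96 in Cy3 and 1.23 in Cy5. The change in *dap* from the first to the second window differed between the genotypes by 1.49 (SE 0.33, adjusted p = 0.0235). At 3-4.5 h the *dap* groups were still apart (0.74, SE 0.23), with an adjusted p of 0.113, and by 4.5-6 h the difference was 0.12 (SE 0.17). The 2 *dap* rows differed in group mean by at most 0.41.

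The 3 mitotic cyclins, partners of Cdk1, showed 3 different time courses. *CycA*, the only one of them that is essential on its own, was level throughout, with wild-type group means of 14.77, 14.81, 14.69 and 14.70 and mutant means of 14.92, 14.94, 14.94 and 14.81, and replicate SDs between 0.02 and 0.10. All 3 mutant samples of *CycA* lay above all 3 wild-type samples at 0-1.5 and 3-4.5 h, but the differences were 0.15 and 0.25 (SE 0.16 in both, adjusted p = 0.61 and 0.391).

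*CycB*, the cyclin whose translation in pole cells is held back by Nanos and Pumilio, gave wild-type signals of 14.55, 14.83 and 14.86 at 1.5-3 h and of 13.96, 14.21 and 13.91 at 3-4.5 h. It fell by 0.72 between these windows (SE 0.17, 1.65-fold, adjusted p = 0.00151). In the mutant the signals of *CycB* were 14.80, 14.70 and 14.83 and then 14.50, 14.38 and 14.63, a change of −0.27 that did not pass the test (SE 0.17, adjusted p = 0.294), and the difference between the drops was 0.45 (SE 0.24, adjusted p = 0.298). At 3-4.5 h the mutant samples all lay above wild type, by a mean of 0.48 (SE 0.18, adjusted p = 0.168), and at 4.5-6 h the ranges overlapped. *CycB3*, which acts with the other 2 in mitosis and is needed in female meiosis, went the other way. Its wild-type means climbed from 13.73 ± 0.15 to 14.13 ± 0.09 and 14.40 ± 0.21 and stayed at 14.35 ± 0.08 (SD, n = 3), and its first step passed the test (0.40, SE 0.15, adjusted p = 0.0364). That *CycB3* call was lost without wild-type replicate 1 or 3 at 0-1.5 h (0.32 and 0.42) or replicate 2 or 3 at 1.5-3 h (0.36 and 0.40), and with ribosomal protein scaling (0.08). The mutant means of *CycB3* were 13.95, 14.07, 14.29 and 14.17, and no mutant step was called.

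The G1 cyclins also went separate ways. *CycD*, the partner of Cdk4, followed *CycB*, with wild-type signals of 13.78, 13.71 and 14.05 at 1.5-3 h and of 12.74, 12.98 and 13.22 at 3-4.5 h, a drop of 0.87 (SE 0.15, 1.83-fold, adjusted p = 8.4e-05). In the mutant *CycD* went from 14.11, 14.16 and 13.73 to 13.61, 13.61 and 13.68, a change of −0.37 (SE 0.15, adjusted p = 0.105, limma). This change was −0.50 and called without replicate 3 at 1.5-3 h, the only library whose removal gave a call. At 3-4.5 and 4.5-6 h all mutant samples lay above all wild-type samples of *CycD*, by 0.65 (SE 0.19, adjusted p = 0.0987) and 0.40 (SE 0.16, adjusted p = 0.14).

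*CycE*, which starts DNA synthesis with Cdk2, fell in both genotypes. The wild-type means of *CycE* were 13.70, 13.27, 13.14 and 13.05, and the mutant means 13.78, 13.41, 13.01 and 12.75. The first step was called in each, at −0.43 in wild type (SE 0.14, adjusted p = 0.0175) and −0.37 in the mutant (SE 0.14, adjusted p = 0.048). The wild-type call was lost without replicate 2 at 0-1.5 h (−0.36) or replicate 1 at 1.5-3 h (−0.33). The mutant call was lost with any 1 of its 6 libraries left out (−0.39, −0.35 and −0.38 without replicates 1, 2 and 3 of the first window, −0.42, −0.35 and −0.35 without those of the second). With ribosomal protein scaling both steps of *CycE* were called and larger, −0.76 in wild type and −0.64 in the mutant. *CycE* is the 1 member for which the mutant covered a clearly wider range of group means, 1.03 against 0.65 in wild type, and its genotype differences lay between −0.29 and 0.14 with none called.

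*fzy* encodes the Cdc20 protein that directs the anaphase-promoting complex to the mitotic cyclins. Its wild-type signals were 12.88, 13.18 and 12.75 at 0-1.5 h and 13.28, 13.82 and 13.89 at 1.5-3 h, a rise of 0.73 (SE 0.19, 1.65-fold, adjusted p = 0.0042), after which the group means stayed between 13.66 and 13.88. With ribosomal protein scaling this rise of *fzy* was 0.40 and not called. The mutant *fzy* signals began higher, at 13.29, 13.46 and 13.36, each above every wild-type sample, with a mean difference of 0.43 that did not pass the test (SE 0.17, adjusted p = 0.158). The mutant rise was 0.47 (SE 0.19, adjusted p = 0.063, or 0.0478 with dye as a term), and the later mutant means of *fzy* lay between 13.71 and 13.84.

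Across the steps between neighbouring windows, wild-type embryos had more called changes than the mutant, among the 10 members as among all genes. From 0-1.5 h to 1.5-3 h, 6 members changed in wild type (45.2% of all genes did) and 2 in the mutant (34.9%). From there to 3-4.5 h the numbers were 5 in wild type (46.9%) and 1 in the mutant (15.3%), and over the last step 1 in wild type (10.2%) and 0 in the mutant (1.17%), where 1 member, *dap*, had an unadjusted p under 0.05. By the test of the difference itself, the first step differed between the genotypes for 3 members, *stg*, *dap* and *trbl* (1.5% of all genes). The other steps differed for 0 members (5.51% and 0.0175%), although *stg*, *twe* and *CycD* had unadjusted p under 0.05 for the second (differences of −0.65, 1.06 and 0.50), and 0 members for the last. The counts of genes behind several of these shares moved by over 1.5 times with 1 library left out: 450 to 941 for the second mutant step (876 with all libraries), 16 to 113 for the last (67), 358 to 466 for the last wild-type step (582), and 33 to 118 and 131 to 475 for the first and second differences between genotypes (86 and 315). The call for *stg* was lost without mutant replicate 1 or 3 at 0-1.5 h (1.05 and 0.96), mutant replicate 3 at 1.5-3 h (0.95), wild-type replicate 2 or 3 at 0-1.5 h (0.98 and 1.01) or wild-type replicate 2 at 1.5-3 h (0.94). The call for *dap* was lost without mutant replicate 1 or 3 at 0-1.5 h (1.41 and 1.50), mutant replicate 3 at 1.5-3 h (1.27), wild-type replicate 2 at 0-1.5 h (1.48) or wild-type replicate 3 at 1.5-3 h (1.17). The call for *trbl* was kept in 4 of 12 such fits, with values of −0.93 to −1.29, and was lost without mutant replicate 1 or 3 at 0-1.5 h (−1.12 and −0.93) or at 1.5-3 h (−1.08 and −1.15), or wild-type replicate 2 or 3 at 0-1.5 h (−1.0 and −1.09) or at 1.5-3 h (−1.04 and −1.07).

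The range of group means over the 4 windows was wider in wild type for 8 of the 10 members. For *trbl* it was 2.88 in wild type and 1.66 in the mutant, for *twe* 2.51 and 1.32, for *dap* 2.32 and 1.21, for *stg* 0.95 and 0.49, for *fzy* 0.94 and 0.47, for *CycD* 0.90 and 0.39, for *CycB* 0.83 and 0.31, and for *CycB3* 0.68 and 0.34. *CycE* ran the other way and *CycA* covered 0.12 and 0.13. These ranges are a description of group means and were not tested. The share of all genes with a wider range in wild type was not computed. Over all genes, too, more changes were called in wild type. The shares were 45.2% against 34.9% in the mutant, 46.9% against 15.3%, and 10.2% against 1.17% in the successive steps.

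**Figure D3:**
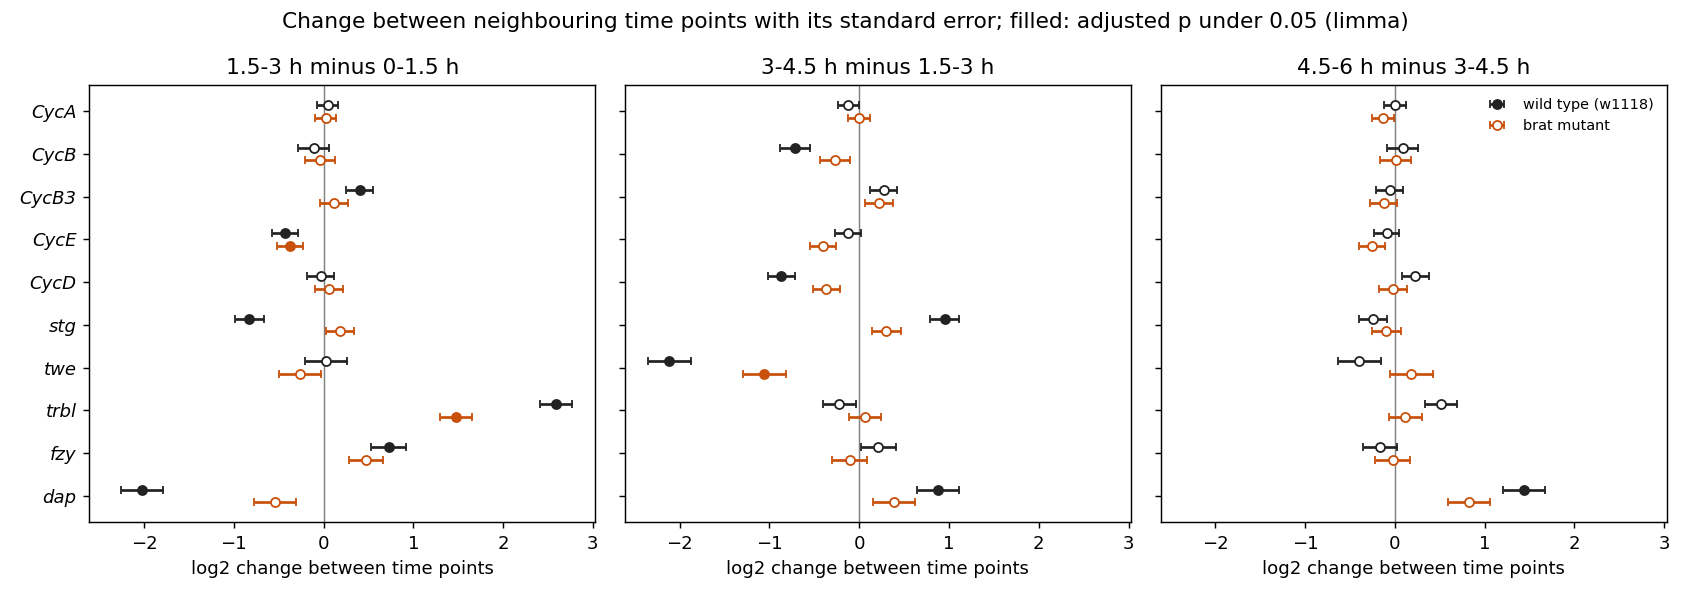
Log2 change of each transcript between neighbouring time points (horizontal axis) in wild type (black) and *brat* mutant (orange), with the standard error from limma and filled points for an adjusted p under 0.05. In the first step *trbl* rises by 2.59 in wild type and 1.47 in the mutant, and the wild-type falls of *stg* and *dap* are filled while their mutant points are open. In the second step *twe* fell by 2.11 in wild type and by a smaller amount in the mutant, −1.06.

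In the order of the 8 groups, the transcripts fell into different shapes. For *twe* the groups formed 4 pairs, in falling order the first 2 mutant windows, the first 2 wild-type windows, the last 2 mutant windows and the last 2 wild-type windows, and samples overlapped within each pair but not between neighbouring pairs. For *trbl* and *fzy* the 2 groups of 0-1.5 h were the lowest, with wild type below the mutant and both apart from each other. For *CycA* every neighbouring pair of groups overlapped. Over the 8 group means, *CycB* and *CycD* had a Pearson r of 0.983, *CycB* and *twe* 0.958, *trbl* and *fzy* 0.927 and *CycB* and *CycB3* −0.862, whereas *stg* and *dap*, which share the wild-type trough, had 0.605. These are descriptions over 8 points that share libraries.

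Among the 5708 other expressed genes, the one with the highest Pearson r to each member over the 8 group means was *CG7530* for *CycB* (r = 0.998), *Tom40* for *twe* (0.993), *pim*, the securin gene, for *CycD* (0.992), *Socs36E* for *trbl* (0.992), *CAP-D2*, a condensin subunit gene, for *CycB3* (0.991), *Dcps* for *fzy* (0.988), *Nmt* for *CycE* (0.969), *Rnf11* for *dap* (0.967), *Polr2G* for *CycA* (0.965) and *mRpS31* for *stg* (0.930). Each r is the highest of 5708 over only 8 points, so a high value alone says little. It also does not compare the size of changes. From 0-1.5 to 3-4.5 h in wild type, *CG7530* went from 12.29 to 9.13 and *CycB* from 14.86 to 14.03. The group means of *pim* were 13.41, 13.36, 12.63 and 12.78 in wild type and 13.52, 13.44, 13.18 and 13.13 in the mutant. Those of *mRpS31* dipped to 10.30 in wild type at 1.5-3 h and lay between 11.19 and 11.54 in the other 7 groups.

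Other genes of the cycle were followed in a list of 38, of which 36 were tested: cyclin-dependent kinases and their subunits, inhibitory kinases and checkpoint genes, mitotic kinases and phosphatases, the maternal PNG kinase, the anaphase-promoting complex, and E2F with RB. Between genotypes, 1 of the 36 was called at 0-1.5 h (8.81% of all genes), 1 at 1.5-3 h (7.64%), 0 at 3-4.5 h (3.59%) and 2 at 4.5-6 h (12%). The list's share of calls was below that of all genes at every time point, but it rested on only 0 to 2 genes. *Cdk4*, the partner of CycD, was lower in the mutant at 0-1.5 h (−0.78, SE 0.19, adjusted p = 0.0305, limma). *gnu*, an activating subunit of the PNG kinase that promotes translation of maternal *CycB*, was lower at 1.5-3 h (−1.36, SE 0.35, adjusted p = 0.0484). The SD of *gnu* there was 0.77 in the mutant and 0.16 in wild type. At 4.5-6 h *gwl*, the Greatwall kinase, was higher (1.13, SE 0.21, adjusted p = 0.0121) and *Cdk2* lower (−0.88, SE 0.19, adjusted p = 0.0237). These calls are from the fit without a dye term, and other settings are not given for them. The list's median genotype difference was −0.17, −0.09, −0.12 and −0.20. In the first step 21 of the 36 fell and 2 rose in wild type, where 26% of all genes fell and 19.3% rose, and 16 fell and 1 rose in the mutant, where 21% of all genes fell and 13.8% rose. The median change of the list was −0.81 in wild type and −0.56 in the mutant, against 0.06 and −0.02 over all genes. *Z600* (*frühstart*) encodes a zygotic inhibitor of cyclin-dependent kinases that blocks mitosis in the presumptive mesoderm. The *Z600* transcript rose by 4.08 in wild type (SE 0.36, adjusted p = 1.3e-08, limma) and by 2.45 in the mutant (adjusted p = 2.0e-05). The PNG kinase gene *png* fell by 2.55 in wild type and by 2.00 in the mutant. *gnu* fell by 2.70 in the mutant and fell by 1.76 in wild type. In the second step 11 rose and 10 fell in wild type (21.7% and 25.2% of all genes) against 2 and 4 in the mutant (6.02% and 9.3%), and *Z600* changed by −3.63 in wild type and −4.25 in the mutant and *gnu* by −2.43 and −1.11. Over the last step 2 rose and 3 fell in wild type (5.95% and 4.23% of all genes), *Z600* falling by a further 1.83 and *Myt1*, a kinase that inhibits Cdk1, rising by 0.91, and in the mutant 0 rose and 1 fell (0.542% and 0.63%), the checkpoint kinase gene *lok* (−0.67).

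Some markers of stage and tissue were called between genotypes in each of the 4 windows. The cellularization genes *nullo*, *bnk*, *Sry-alpha* and *slam* are transcribed briefly as cells form. At 0-1.5 h they had a summed log2 level of 12.43 to 13.53 in the mutant against 12.19 to 12.36 in wild type, with 0 of the 4 called (8.81% of all genes were). At 1.5-3 h the sum was 14.05 to 15 against 15.46 to 15.78, and 1 of the 4, *Sry-alpha*, was called lower (3.59% of all genes were). At 0-1.5 h, 3 of 5 tested nervous system genes (*elav*, *ase* and *nerfin-1*, of a list of 6) and 2 of 3 mesoderm genes (*twi* and *sna*) were called higher in the mutant (4.91% of all genes were), and at 1.5-3 h 1 of each, *ase* and *Mef2* (4.06%). At 1.5-3 h *twi* and *sna* were not called, with means of 12.85 and 12.93 in the mutant and 12.69 and 12.81 in wild type. Wild-type *Mef2* was already at 11.74 at 0-1.5 h and was 11.25 at 1.5-3 h. The summed nervous system level was 11.60 to 12.10 against 10.92 to 11.04 in the first window and 12.66 to 13.36 against 11.70 to 12.41 in the second. At 4.5-6 h, the window of the widest *twe* difference, 2 of the 5, *ase* and *scrt*, and 2 of the 3, *twi* and *sna*, were called lower in the mutant (5.72% of all genes were). Of the 5 pole cell genes, 2, *pgc* and *vas*, were called lower at 0-1.5 h (3.9% of all genes were), 1, *pgc*, at 1.5-3 h (3.59%) and again at 4.5-6 h (5.72%), and 1, *osk*, higher at 3-4.5 h (2.17%). The part of embryo age or tissue makeup in the differences of *twe*, *trbl*, *stg* and *dap* was not tested.

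**Figure D4:**
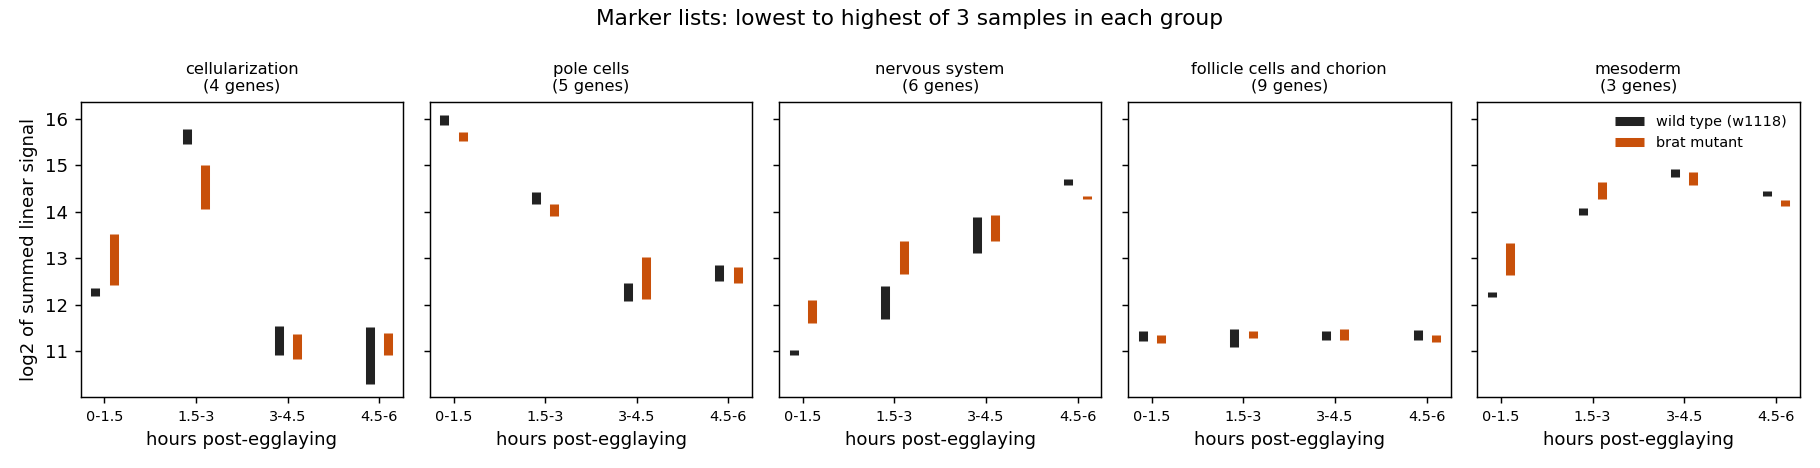
Log2 of the summed linear signal of each marker list (vertical axis) at 4 time points in hours post-egglaying, each bar running from the lowest to the highest of 3 samples, with wild type in black and *brat* mutant in orange. At 1.5-3 h the cellularization list lies at 14.05 to 15 in the mutant and 15.46 to 15.78 in wild type, and the nervous system list lies higher in the mutant in the first and second windows.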

How the data were processed

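Total RNA of whole embryos was reverse-transcribed, labelled with Cy3 or Cy5 and hybridised to NimbleGen expression arrays. The authors normalised all 24 samples together by the RMA quantile method in ArrayStar and deposited log2 values per transcript. Of the background correction, the array's annotation release and the pairs of samples that shared an array, the sources used here say nothing. In each mutant group 2 samples carried Cy3 and 1 Cy5, and in each wild-type group 1 and 2, so dye and genotype are partly confounded, while the dyes are the same at every time point within a genotype.

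Of 17775 rows, 6 held no value and 17769 were used. Of these, 16715 were named through RefSeq symbols and 1054 kept the name in the file. Rows of a gene were averaged (13634 genes). A row counted as expressed if it exceeded the mean of all rows in at least 1 group (one-sided limma, false discovery rate of 5%), which left 7734 rows of 5718 genes. The deposited values of the 10 members were then compared with limma 3.58.1 in R 4.3.3, with p-values adjusted by Benjamini-Hochberg over all 5718 genes and a threshold of 0.05. Genotypes were compared in the 6 samples of each time point, and steps in time and their difference between genotypes in 1 fit of all 24 samples. With 3 against 3, an exact permutation test of a single gene cannot go below p = 0.1, so it was not used. The genotype and time comparisons share groups, so their values are not independent of each other. The precision is limited by the number of arrays. The genotype fits of 6 samples were tested on simulated data with independent noise, and the fit of all 24 samples was not.

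All 10 members are named, of the other cell cycle genes the 2 that changed most in each comparison, and for each member the gene with the highest Pearson r of group means. The members, the gene lists and the tests were chosen with earlier results of these data known. Marker lists covered cellularization, pole cells, nervous system, mesoderm and follicle cells with chorion. Alternatives were SAM, limma-trend, other sets of samples in the fit, no expression filter, a replicate block, a dye term, rows fitted singly, only expressed rows averaged, scaling to 84 ribosomal protein genes, and leaving out each replicate.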

Additional observations from a re-analysis of the deposited data

Results flagged for a closer look

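Between 0-1.5 h and 1.5-3 h, 3 of the 10 transcripts changed differently in the genotypes by the test of the interaction (limma, 24 samples). The change in *dap* was 1.49 higher on the log2 scale in mutant embryos than in wild type, and that in *stg* 1.01 higher (adjusted p = 0.0235 for each). The change in *trbl* was −1.11, lower in the mutant (adjusted p = 0.0267). All 3 calls were lost when genes below the expression filter were added to the adjustment, with the same values.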

How the results depend on the processing

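The calls for *stg* at 1.5-3 h and *twe* at 4.5-6 h were kept under every alternative tried. Counts of members called between genotypes moved as follows. At 0-1.5 h (2 members) 1 was called with 1 fit of 24 samples or ribosomal protein scaling, 0 without the expression filter or with dye as a covariate, and 0 to 1 with a replicate left out. At 1.5-3 h (2 members) 1 was called without the filter, with dye, with the replicate block, or with any replicate left out. At 3-4.5 h (1 member) 2 were called by SAM, 4 in 1 fit of 24 samples, 5 by limma-trend, 0 with dye, and 0 to 1 with a replicate left out, the added members being *CycD*, *stg*, *dap* and, by limma-trend, *CycB*. At 4.5-6 h (1 member) 2 were called by SAM, 2 in 1 fit, both adding *stg*, and 3 by limma-trend, which added *stg* and *CycD*. For the first mutant step (2 members) 1 was called with 1 genotype fitted, without the filter or with expressed rows averaged, 3 with dye (adding *fzy*) or ribosomal protein scaling (adding *dap*), 4 with the replicate block (adding both), and 1 to 2 with a replicate left out. For the last mutant step (0 members) the block and leaving out a replicate gave up to 1, *dap*, and for the second mutant step (1) and the last wild-type step (1) leaving out a replicate gave 1 to 2. For the first interaction (3 members) 0 were called without the filter and 0 to 3 with a replicate left out, and for the second (0 members) 0 to 1. In a group of 2 samples the spread was taken from all samples of the fit.

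Of the 130 single differences (10 members in 13 comparisons), 32 changed sign under at least 1 alternative. None of the 32 was called in the reported fits, and the widest was 0.18 there, so no direction is given to them. With dye, *CycB* between genotypes at 1.5-3 h was −0.0099. With ribosomal protein scaling, *fzy* between genotypes at 4.5-6 h was 0.037, the first wild-type step −0.28 for *CycA* and −0.30 for *twe*, the last wild-type step of *CycA* −0.0065, the first mutant step −0.25 for *CycA*, −0.15 for *CycB3*, −0.21 for *CycD* and −0.087 for *stg*, the last mutant step of *CycB* −0.0023, and the first interaction of *CycA* 0.035. With a replicate left out, 31 spanned 0. Between genotypes these were *CycB* at 0-1.5 h (−0.20 to 0.065), *CycB*, *CycB3* and *fzy* at 1.5-3 h (−0.068 to 0.087, −0.21 to 0.051 and −0.013 to 0.30), *CycB3* and *fzy* at 3-4.5 h (−0.20 to 0.0067 and −0.29 to 0.044) and *fzy* at 4.5-6 h (−0.11 to 0.096). In wild type they were *CycA*, *CycD* and *twe* in the first step (−0.0006 to 0.085, −0.13 to 0.038 and −0.016 to 0.098) and *CycA*, *CycB* and *CycB3* in the last (−0.025 to 0.046, −0.041 to 0.19 and −0.14 to 0.061). In the mutant they were *CycA*, *CycB*, *CycB3* and *CycD* in the first step (−0.017 to 0.082, −0.15 to 0.12, −0.034 to 0.23 and −0.020 to 0.20), *CycA* and *fzy* in the second (−0.059 to 0.040 and −0.26 to 0.078) and *CycB*, *CycD*, *fzy* and *twe* in the last (−0.079 to 0.11, −0.070 to 0.069, −0.21 to 0.13 and −0.054 to 0.39). Among interactions they were *CycA*, *CycB* and *CycE* in the first (−0.062 to 0.037, −0.034 to 0.24 and −0.041 to 0.12), *CycB3* in the second (−0.16 to 0.099) and *CycB*, *CycB3*, *fzy* and *stg* in the last (−0.18 to 0.048, −0.19 to 0.016, −0.046 to 0.29 and −0.011 to 0.31). The cause of these changes was not tested.

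Ribosomal protein scaling moved the median of all genes in the first step to −0.27 in wild type (0.06 before) and −0.29 in the mutant (−0.02), with 422 genes higher and 2010 lower in wild type (1101 and 1485 before) and 408 and 1745 in the mutant (791 and 1202). Under it the wild-type rises of *CycB3* and *fzy* were 0.08 and 0.40 and not called, while *trbl* was called at 2.26. *CycB* in the first wild-type step (−0.44, adjusted p = 0.0475, limma) and *dap* in the first mutant step (−0.81) were then called, and *CycE* was −0.76 and −0.64. Genotype calls at 4.5-6 h were then 374 higher and 215 lower (362 and 327).

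Counts over all genes moved by over 1.5 times as follows. At 1.5-3 h (437) 232 genes were called with dye, 284 without the filter, 822 in 1 fit and 710 by SAM, at 3-4.5 h (205) 58, 123, 861 and 580, with 432 by limma-trend and 101 with the block. At 0-1.5 h (504) 322 were called without the filter, and at 4.5-6 h (689) 422 with dye and 1196 by SAM. For the interactions, 41 (of 86) and 121 (of 315) were called without the filter, and for the last (1) 7 with dye and 6 with the block. For the second mutant step (876) 564 were called without the filter, and for the last (67) 34 without it, 24 with 1 genotype fitted and 105 with the block. With a replicate left out, the genotype counts ran over 255 to 620, 164 to 283, 9 to 325 and 304 to 518, the mutant steps over 1583 to 1811 (1993), 450 to 941 (876) and 16 to 113 (67), the last wild-type step over 358 to 466 (582), and the interactions over 33 to 118 (86), 131 to 475 (315) and 0 to 4 (1). Between genotypes at the same time point, samples of the same replicate number did not deviate together (r of −0.08 to 0.17, other pairs −0.13 to 0.13). The numbers were therefore not taken as pairs across genotypes. Whether same-numbered samples of a genotype deviated together across time was not measured. With a replicate block within each genotype, more genes were called in every time step and interaction. In the first mutant step 903 were then higher and 1268 lower (791 and 1202 without the block).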
